A study of Mus musculus with 6 samples.

Results

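The cyclins, the cyclin-dependent kinases (CDKs), the CDK inhibitors and their closest partners were examined in hematopoietic stem cells that had been through 2 rounds of transplantation. The members were all non-control probes on the array whose gene name begins with Ccn and a letter, is Cdk, E2f or Cdkn followed by the number of a family member, or is Rb1, Rbl1, Rbl2, Cdc25a, Cdc25b, Cdc25c, Cdc20 or Mki67. They came to 106 probes of 73 genes, out of 39429 probes on the array, and all 73 gene names are current RefSeq symbols. The rule also takes in a few genes that carry a cyclin's name without being one, such as Ccndbp1 and Ccnb1ip1, whose products bind cyclins. RNA was measured on 6 single-colour Agilent arrays, 3 of WT and 3 of p190-B-/- cells. In both groups the cells were LSK-SLAM, which means lineage-negative, c-Kit+, Sca-1+, CD150+ and CD48- bone marrow cells, from secondary recipients (2T). The donors were fetal liver cells of mid-gestation p190-B-/- embryos or their WT littermates on a C57BL/6J background, marked CD45.2+. They had been given with CD45.1+ competitor bone marrow to lethally irradiated CD45.1+ mice and later transferred to the second hosts. The loss of p190-B, a RhoGAP encoded by Arhgap5, is constitutive, so donor cells of the null group lacked it from the embryo on. The study's legends describe independent 2T mice and independent isolations for each group, but how mice map to arrays is not stated in the labels, so that the tests measure only the spread between these 6 samples.

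A cyclin is the regulatory subunit that switches on a CDK. The D cyclins with Cdk4 and Cdk6, and then the E cyclins with Cdk2, phosphorylate the pocket proteins Rb1, Rbl1 (p107) and Rbl2 (p130), which frees E2F transcription factors to drive entry into S phase. The A and B cyclins with Cdk2 and Cdk1 carry the cell through S phase, G2 and mitosis, and the Cdc25 phosphatases remove the inhibitory phosphates from the kinases. The Cip/Kip inhibitors (Cdkn1a or p21, Cdkn1b or p27, Cdkn1c or p57) and the Ink4 inhibitors (Cdkn2a to Cdkn2d) oppose the kinases. Adult hematopoietic stem cells are mostly out of cycle, and Cdkn1c is the inhibitor best known for keeping them there. The question put to these data is whether inhibitor and proliferation genes differed between 2T-WT and 2T-p190-B-/- stem cells.

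Levels are given as log2 of the processed spot signal over the 75th percentile of its own array, so that a spot at that percentile reads 0 and 1 unit is a 2-fold change. Every difference is p190-B-/- minus WT. The 75th percentile itself was 125, 227 and 53.9 signal units on the WT arrays and 385, 321 and 252 on the p190-B-/- arrays, and from 48.1% to 72.7% of spots were well above background. WT array 3 was the dimmest. A probe that was not detected therefore has a different scaled value on each array: Ccne2, not above background anywhere, read -4.71, -6.25 and -4.45 on the WT arrays and -7.08, -5.13 and -6.02 on the p190-B-/- arrays. Of the sorting markers, Ly6a (Sca-1) was above background on 6 arrays and Kit on 5, whereas Slamf1 (CD150) and Procr were above background on none, and Cd48, on which cells were selected against, was above background on all 6. The Arhgap5 probe was above background on 0 of 3 WT and 1 of 3 p190-B-/- arrays, so it does not check the genotype labels. The summed level of 9 B lymphocyte markers ran from 128 to 1056 times the 75th percentile on the WT arrays and from 83.0 to 116 on the p190-B-/- arrays, with the highest value on WT array 3, and each of the 9 was above background on at least 3 arrays. For 12 neutrophil lineage markers the sums were 1463 to 7792 and 871 to 1571, with S100a9 above background on no array, for 9 red cell precursor markers 324 to 985 and 213 to 301, for 10 T lymphocyte markers 49.6 to 145 and 38.4 to 59.5, and for 10 megakaryocyte and platelet markers 62.6 to 99.1 and 30.8 to 103. Such sums rest on the brightest genes. The median difference over the tested genes of a list was -1.43 for B lymphocyte, -1.02 for neutrophil, -0.28 for T lymphocyte and -0.11 for megakaryocyte markers, but 0.24 for red cell markers, 4 of 5 of which were above 0. The part of these cells in the values that follow was not tested, and in bulk RNA fewer cells of a type and less RNA per cell cannot be told apart.

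Many members were too dim to compare. The test took a probe only where 3 or more arrays detected it well above background, which left 57 of 106 member probes (53.8%, against 63.8% of all probes) and 46 of 73 member genes. A further 14 genes were detected on 1 or 2 arrays, and 13 had no probe above background on any array. These 13 were Ccnb3, Ccne2, Ccnf, Ccnl1, Ccnt2, Ccny, Cdk13, Cdk19, Cdkn2aip, Cdkn2c, E2f4, E2f5 and Rbl2. Cyclin E2, the Ink4 inhibitor p18 (Cdkn2c) and the pocket protein p130 (Rbl2) were thus below what the array could measure in either genotype. Among the genes detected in 1 group alone, Cdk20, also called cell cycle related kinase, was above background on 2 of 3 p190-B-/- arrays and on no WT array, where its mean was at least 2.17-fold lower. The null readings of Cdk20 were -1.59, 1.78 and -5.82, so that its bound leaned on p190-B-/- array 2. Ccnk, the partner of Cdk12 and Cdk13, was above background on 2 of 3 WT arrays and on no p190-B-/- array, where its mean was at least 1.71-fold lower. Ccni and E2f3, each above background on WT array 1 alone, had null means at least 2.88-fold and 1.01-fold lower. Ccng2, Ccnh, Ccnjl, Cdc25c, Cdk2 and E2f2, each above background on a single p190-B-/- array, gave no bound. In these bounds the undetected group was set, on each array, to the higher of its own signal and the lowest signal that the scanner called well above background.

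No member passed the test across all probes. With limma and Benjamini-Hochberg adjustment over 25160 probes, 0 of 57 member probes and 0 probes in all (0%) passed the threshold of 0.05. The lowest adjusted p of any member was 0.637. Without adjustment 4 of 57 member probes (7.02%) had p under 0.05, against 6.57% of all probes tested. The study used another rule, the methods' t-test at 0.05 together with a change of at least 2-fold. Taking each gene by its brightest tested probe, that rule held for 4 of 46 member genes in the lower direction (8.70%), against 4.45% of the 15647 genes tested, and for 0 in the higher direction, against 1.98%. The 4 were Rbl1, Ccnd1, Ccnyl1 and Cdk8. All 3 p190-B-/- arrays lay below all 3 WT arrays for 9 member genes (19.6%), against 12.6% of all genes, and above them for 2 (4.35%), against 4.13%. An exact permutation test of 3 against 3 arrays cannot give a p below 0.1, the value of each gene without overlap. The differences of the members ran from -3.56 to 2.25 with a median of -0.22, beside -0.36 for all genes. In 29 of 46 member genes (63.0%) the difference was below 0, beside 61.9% of all genes. The share of members below 0 was thus close to that of all genes, and the standard errors ran from 0.68 to 1.99 per gene.

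**Figure D1:**
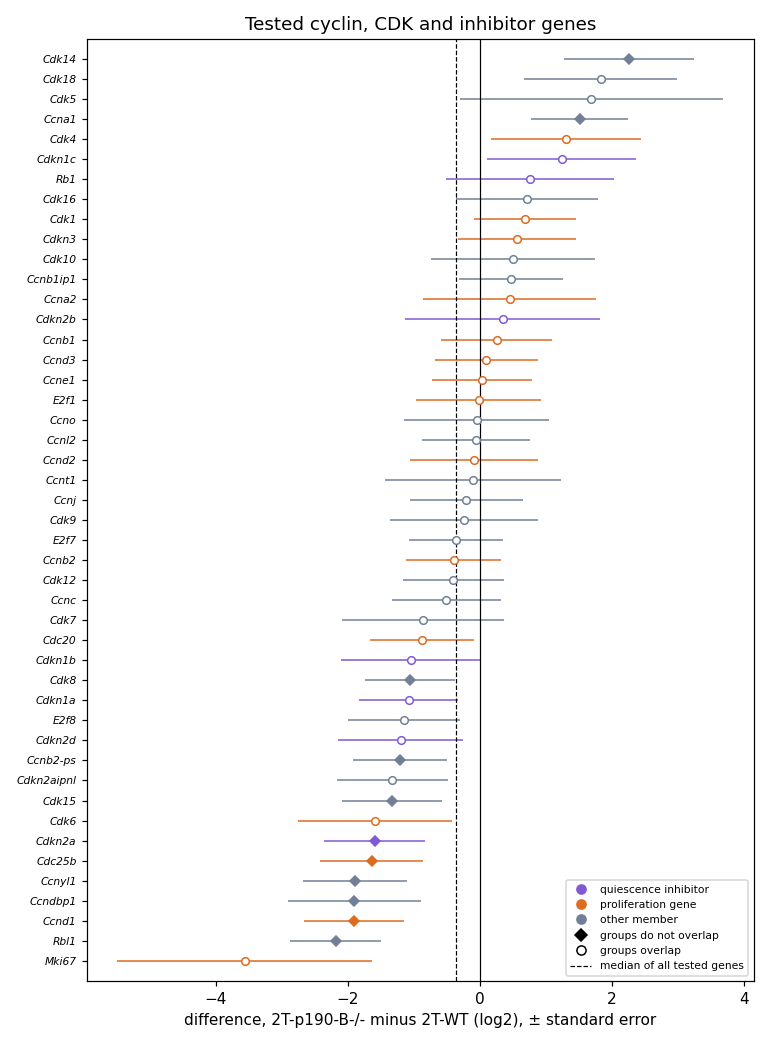
Difference between 2T-p190-B-/- and 2T-WT LSK-SLAM for the 46 tested member genes (x axis, log2, with the standard error from limma; y axis, genes in order of the difference). Diamonds mark genes whose 3 p190-B-/- and 3 WT arrays do not overlap, 2 higher and 9 lower, and the dashed line is the median of all tested genes, -0.36.

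The CDK inhibitors did not share a direction. Of the 7, 6 could be tested; 2 had a difference above 0 and 4 below it, none was past the methods' threshold, and only Cdkn2a had groups that did not overlap. The Ink4a/Arf locus Cdkn2a, which encodes the Cdk4 and Cdk6 inhibitor p16 and the p53 activator Arf, read -1.52, -1.42 and -0.10 on the WT arrays and -3.39, -2.38 and -2.05 on the p190-B-/- arrays. All 6 were above background. The difference was -1.59 (SE 0.76, adjusted p = 0.637 with limma). A second Cdkn2a probe was above background on WT array 2 alone.

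Cdkn1a (p21), the p53-induced inhibitor, read 1.57, 0.48 and 2.03 in WT and -0.06, -0.06 and 0.97 in p190-B-/- with its brightest probe, a difference of -1.08 (SE 0.75). The groups overlapped through WT array 2 and p190-B-/- array 3. Its other 2 tested probes differed by 0.93 (SE 1.32) and 0.37 (SE 0.74), of the opposite sign, so the array gave no single value for p21, and the brightest probe differed by -0.42 with normexp. Cdkn1b (p27) was dim, at -4.53, -3.11 and -1.06 in WT and -2.99, -5.17 and -3.68 in p190-B-/-, and was detected on 2 of 3 arrays of each group. Its difference of -1.05 (SE 1.05) became -0.12 without WT array 3 and -1.86 without WT array 1.

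For Cdkn1c (p57) the 2 genotypes were alike except on p190-B-/- array 3. It read -1.46, -1.48 and -2.28 in WT and -1.94, -1.67 and 2.11 in p190-B-/-. The difference was 1.24 (SE 1.13), and -0.065 without p190-B-/- array 3. Cdkn2b (p15), an Ink4 inhibitor that TGF-β is known to induce, read -4.58, -3.81 and -1.27 in WT and -4.88, 0.32 and -4.05 in p190-B-/-, with a single detected p190-B-/- array. Its difference was 0.35 (SE 1.47). A second Cdkn2b probe, detected too rarely to be tested, read -4.79, -4.67 and -2.68 in WT and -0.34, -2.60 and -4.27 in p190-B-/-. That probe was above background on no WT array and on p190-B-/- arrays 1 and 2. Cdkn2d (p19) read -2.56, -2.21 and -0.60 in WT and -3.76, -3.82 and -1.38 in p190-B-/-, a difference of -1.19 (SE 0.95), and the highest null array lay above the lower WT arrays. It was -0.60 without WT array 3 and -2.38 on the single slide that held both genotypes. Over the 6 tested inhibitors the median difference was -1.06.

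**Figure D2:**
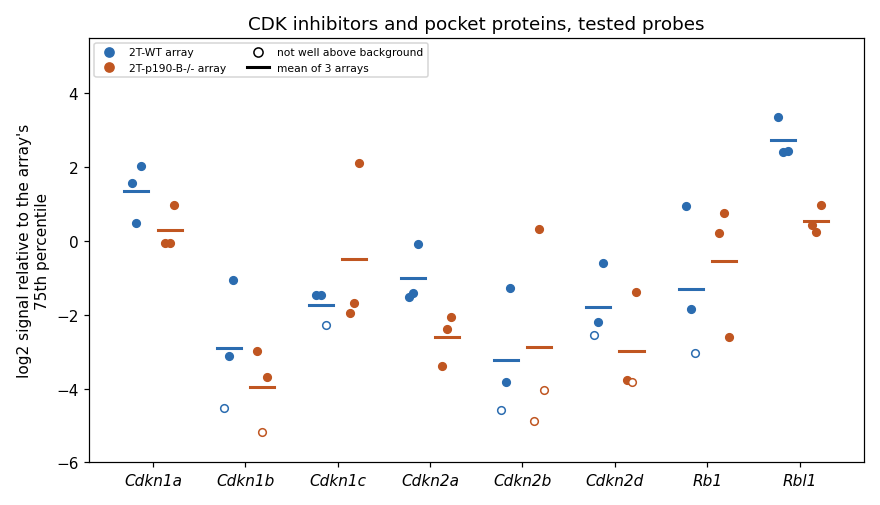
Level of each tested CDK inhibitor and pocket protein by array (y axis, log2 signal relative to the array's 75th percentile), with 3 points per genotype, open where the probe was not well above background, and a bar at the mean. Rbl1 and Cdkn2a are lower on every p190-B-/- array, and the Cdkn1c mean of the p190-B-/- group is set by 1 array at 2.11.

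Of the pocket proteins, Rbl1 gave the smallest unadjusted p among the members. Rbl1 (p107), which with E2f4 represses cell cycle genes and is itself induced by E2F on S phase entry, read 3.35, 2.40 and 2.44 on the WT arrays and 0.44, 0.23 and 0.97 on the p190-B-/- arrays. The groups lay well apart, at 2.73 ± 0.54 and 0.55 ± 0.38 (SD, n = 3 each), a 4.54-fold lower level in the null. The difference was -2.18 (SE 0.68), with an adjusted p of 0.637 by limma over all probes. It lay between -2.39 and -1.87 with any 1 array left out, and was -2.08 on the slide that held 2 arrays of each genotype, but -1.22 with normexp background correction. This value rests on 1 probe. A second Rbl1 probe, closer to the 3' end of this minus-strand gene, was not well above background on any array. The 2 probes are annotated to different RefSeq transcripts of Rbl1, and which transcripts the value of -2.18 stands for was not tested. The probes are 60 bases long, and the first 30 bases of each are shown, since the 2 gave different readings. The first lies at chr2:157000761-157000820 and the second at chr2:156972143-156972202 (mm9).
Rbl1, detected probe: ccgagaggaattggaggaggggaaaacttg
Rbl1, undetected probe: acactggaggtttagccttctgaagaatca

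Rb1 itself, the retinoblastoma protein, varied within each genotype, at 0.95, -1.85 and -3.02 in WT and 0.21, 0.75 and -2.60 in p190-B-/-. Its difference was 0.76 (SE 1.27), 2.92 on the single slide and -0.10 without WT array 3. Rbl2 was not detected.

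Among the G1-S drivers, cyclin D1 was lower in the null and the others showed no separation. Of 12 genes, 7 were tested, 3 with a difference above 0 and 4 below it, with a median of -0.02. Ccnd1 read -2.70, -2.65 and -1.20 on the WT arrays and -4.40, -4.50 and -3.37 on the p190-B-/- arrays, a difference of -1.91 (SE 0.76, adjusted p = 0.637 with limma). These are low levels, detected on 2 of 3 arrays of each group. The other D cyclins, which signal from cytokine receptors to Cdk4 and Cdk6, were detected on all arrays and overlapped. Ccnd2 read 0.21, -0.85 and -1.51 in WT and -2.21, 0.90 and -1.10 in p190-B-/-, a difference of -0.09 (SE 0.96). Ccnd3 read 0.84, -1.01 and -0.26 in WT and -0.32, 0.67 and -0.48 in p190-B-/-, a difference of 0.10 (SE 0.78), with 0.75 (SE 0.93) for its other probe. The 3 D cyclins thus did not share a direction.

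Cyclin E1 (Ccne1), the partner of Cdk2, read -0.57, -0.41 and -2.05 in WT and -1.42, -1.01 and -0.48 in p190-B-/-, a difference of 0.04 (SE 0.75). Cdk6 was detected on 2 WT arrays and 1 p190-B-/- array, at -4.51, -3.58 and -0.19 against -4.69, -4.94 and -3.40. Its difference of -1.58 (SE 1.17) became -0.30 without WT array 3 and -2.93 on the single slide. Cdk4 was measured by 3 tested probes, which are described with the other such genes. E2f1, the activator E2F that pocket proteins hold in check, read 0.14, 2.13 and 3.10 in WT and 2.71, 1.11 and 1.50 in p190-B-/-. The E2f1 means were 1.79 ± 1.51 and 1.77 ± 0.84 (SD, n = 3 each), and the difference was -0.02 (SE 0.94). Ccne2 was not detected, and Cdk2, Cdc25a, E2f2 and E2f3 were detected on 1 or 2 arrays.

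The S, G2 and M phase genes split evenly. Of 10 genes 8 were tested, 4 with a difference above 0 and 4 below it, with a median of -0.07. Cdc25b, the phosphatase that activates Cdk1 at the entry to mitosis, was lower on every null array. It read 1.57, 1.07 and 2.91 in WT and -0.18, -0.08 and 0.90 in p190-B-/-, a difference of -1.64 (SE 0.78, adjusted p = 0.637 with limma), all 6 arrays above background. With normexp it was -0.93.

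Mki67, the proliferation marker Ki-67, had the largest difference of all members and also the second largest standard error. On the WT arrays it read 2.59, -1.96 and 6.87, and on the p190-B-/- arrays -1.98, -0.33 and -0.86. The WT arrays thus spanned more than the difference between the means, 2.50 ± 4.42 against -1.06 ± 0.84 (SD, n = 3 each). The difference of -3.56 (SE 1.93) became -1.37 without WT array 3 and -5.79 without WT array 2, on which Mki67 was as low as in the null. A second Mki67 probe, detected too rarely to be tested, was above background on p190-B-/- array 1 alone. On WT array 3, where the tested probe read 6.87, the second probe read -2.33 and was not above background.

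The remaining tested genes of these phases had overlapping groups. Cdk1, the mitotic kinase, read -0.03, -0.01 and 1.62 in WT and 0.72, 1.04 and 1.88 in p190-B-/-, a difference of 0.68 (SE 0.78), and 0.07 on the single slide. Its partner Ccnb1 read -0.93, 0.37 and -0.39 in WT and -0.23, 1.23 and -1.18 in p190-B-/-, a difference of 0.26 (SE 0.84). Ccnb2 read -0.48, 0.54 and 0.82 in WT and -0.48, -0.28 and 0.45 in p190-B-/-, a difference of -0.40 (SE 0.72), and -1.06 on the single slide. By these probes all 3 were detected on every array. The further Cdk1 probes were untested and above background on p190-B-/- array 2 alone. A further Ccnb1 probe was above background on WT array 2 alone, where it read 3.22. The last Ccnb1 probe was above background on WT array 3 and p190-B-/- array 1. Cdc20, the activator of the anaphase-promoting complex, read 1.44, -0.25 and 0.55 in WT and -0.39, -1.07 and 0.56 in p190-B-/-, a difference of -0.88 (SE 0.79). Cyclin A2 (Ccna2) read -2.31, -4.01 and -1.86 in WT and -3.72, 0.73 and -3.83 in p190-B-/-, a difference of 0.45 (SE 1.31). Without p190-B-/- array 2, the only null array on which Ccna2 was bright, the difference was -1.05. Cdkn3, a phosphatase that dephosphorylates CDKs, read -1.71, -1.20 and -3.16 in WT and -2.11, -0.07 and -2.20 in p190-B-/-, a difference of 0.57 (SE 0.90).

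**Figure D3:**
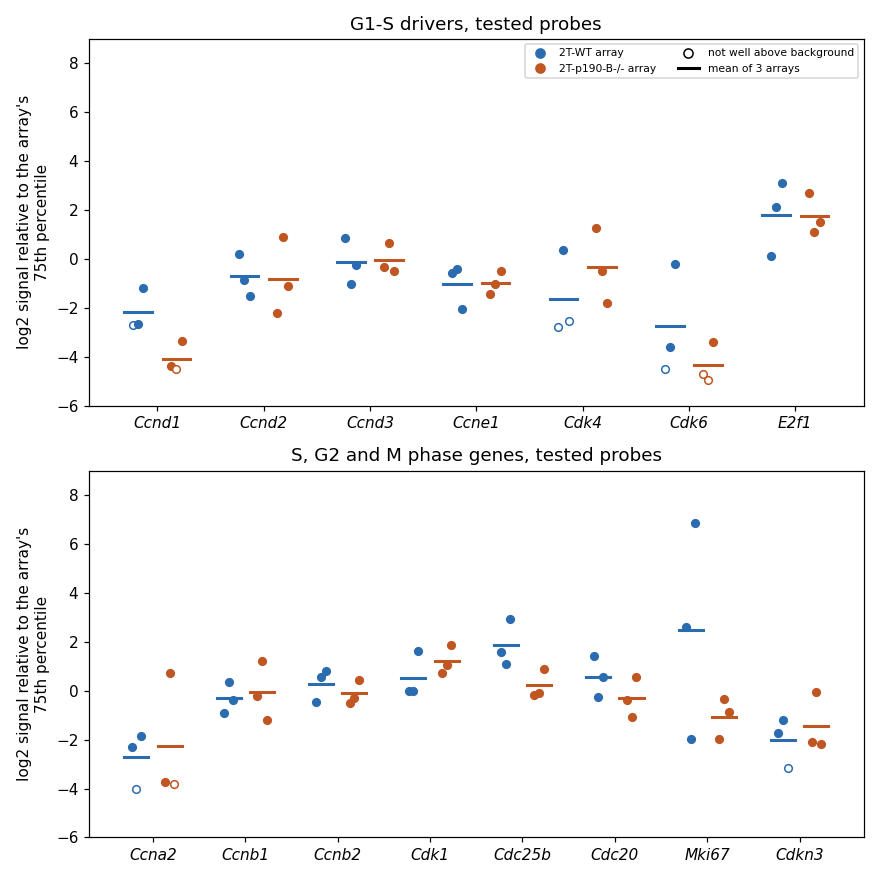
Level of each tested G1-S driver (upper panel) and each tested gene of S, G2 and M phase (lower panel) by array (y axis, log2 signal relative to the array's 75th percentile), with 3 points per genotype, open where not well above background, and a bar at the mean. Ccnd1 and Cdc25b are lower on every p190-B-/- array, while the WT points of Mki67 run from -1.96 to 6.87.

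Promoter sequence, which the choice of members did not use, was searched for 3 motifs of cell cycle genes. RefSeq windows of GRCm38.p6, from 250 bases before to 50 bases after the start, were at hand for 58 of the 73 members. Over these 58, the motifs were found for 13 (22.4%, cell cycle homology region), 33 (56.9%, CCAAT box) and 8 (13.8%, E2F-type site). The cell cycle homology region, a late cell cycle element searched as TTTGAA on both strands, was found for 6 of the 8 S, G2 and M phase genes with a window, 2 of 9 G1-S drivers and 1 of 6 CDK inhibitors, and for 20.2% of all genes. A CCAAT box was found for all 8 of the S, G2 and M phase genes, against 41.1% of all genes, also counting both strands. An E2F-type site, searched as TTTGGCGC, TTTCGCGC, TTTCCCGC or TTTGGCGG on both strands, was found for 4 of the 9 G1-S drivers, for Rbl1, Cdk1, Cdkn2a and E2f7, and for 2.70% of all genes. A site that reads on both strands counts once, and the ends of different motifs may share letters. The stretches below are those of members described above, Rbl1 and Cdkn2a, which were lower on every null array, and Cdk1, Cdc20 and Mki67, whose groups overlapped. Each is 30 bases, read on the gene's strand, with the motif in capitals.
Rbl1, chr2:157204535-157204564, minus strand: caagaaggcgatTTTCGCGCgctttgtcgc
Cdkn2a, chr4:89294700-89294729, minus strand: ctctgggaagcTTTCCCGCgcgactgggga
Cdk1, chr10:69353025-69353054, minus strand: tttccgctcccTTTCGCGCtctgcgctccc
Cdk1, chr10:69352913-69352942, minus strand: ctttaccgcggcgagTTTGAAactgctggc
Cdc20, chr4:118437344-118437373, minus strand: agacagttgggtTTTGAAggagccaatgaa
Mki67, chr7:135716460-135716489, minus strand: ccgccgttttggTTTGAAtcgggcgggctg
The same E2F-type letters thus stand before Rbl1, with a difference of -2.18, and before Cdk1, with a difference of 0.68, and a match in a window does not show a bound site.

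Of the 5 repressor and atypical E2Fs, 2 could be tested. E2f4 and E2f5, the partners of p130 and p107, were above background on no array, and E2f6 on 2 of 6. E2f7, an atypical E2F that represses E2F targets, was bright and even by its tested probe. It read 3.63, 4.37 and 2.74 in WT and 2.99, 3.32 and 3.34 in p190-B-/-, a difference of -0.36 (SE 0.72). The other E2f7 probe was above background on WT array 2 alone. E2f8, its close relative, read -3.21, -2.50 and -1.85 in WT and -4.67, -4.06 and -2.28 in p190-B-/-, a difference of -1.15 (SE 0.85), with overlapping groups. It was -0.65 without p190-B-/- array 1 and -2.19 on the single slide.

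Among the members outside the core cycle, 5 further genes were lower on all null arrays and 2 were higher. Cdk8, the kinase of the Mediator complex, was the one gene for which 2 probes gave the same answer without overlap. The brighter probe read 0.43, -0.34 and 0.74 in WT and -1.12, -0.71 and -0.50 in p190-B-/-, a difference of -1.06 (SE 0.68). The other read -1.09, -0.95 and -0.80 in WT and -1.80, -1.80 and -2.52 in p190-B-/-, a difference of -1.09 (SE 0.65). Both were above background on all 6 arrays, and the adjusted p was 0.638 and 0.637 with limma. With normexp the brighter probe differed by -0.64. The 2 probes lie far apart in the gene, at chr5:147114021-147114080 and chr5:147043316-147043375 (mm9), and their first 30 bases are shown for that reason. The remaining Cdk8 probe was above background on p190-B-/- array 2 alone.
Cdk8, brighter probe: tgcagacagggttttcttttcctcgttggt
Cdk8, second probe: cgaggacctgtttgaatacgagggctgcaa

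Ccnyl1, a relative of cyclin Y, read 0.15, 0.03 and 1.18 in WT and -2.26, -1.66 and -0.39 in p190-B-/-, a difference of -1.89 (SE 0.78). A further Ccnyl1 probe was above background on p190-B-/- array 3 alone, and the last on no array. Cdk15, a kinase of the Cdk14 group, read -1.66, -1.35 and -0.16 in WT and -2.53, -2.96 and -1.66 in p190-B-/-, a difference of -1.33 (SE 0.76), with WT array 1 and p190-B-/- array 3 almost level. Ccnb2-ps, a pseudogene of cyclin B2 whose probe may share signal with its parent, read -0.82, -0.70 and 0.38 in WT and -1.07, -2.07 and -1.63 in p190-B-/-, a difference of -1.21 (SE 0.71). Ccndbp1, a protein that binds D cyclins, read 4.11, 0.48 and 1.20 in WT and 0.26, -0.34 and 0.19 in p190-B-/-. Its difference of -1.90 (SE 1.01) became -0.81 without WT array 1, and its second probe differed by -0.12 (SE 1.43). The 2 higher genes were Ccna1 and Cdk14. Ccna1, the cyclin A best known from germ cells, read -3.76, -2.23 and -3.28 in WT, where it was detected on 1 array, and -1.83, -1.97 and -0.96 in p190-B-/-, where it was detected on 3. Its difference was 1.51 (SE 0.74), but -0.36 with normexp background correction.

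The cyclins and CDKs of transcription, which act on RNA polymerase II, were compared as a group of their own. Of 14 listed genes, 1 of which, Cdk11b, is not a member by name, 8 were tested, and all 8 had a difference below 0, as did 61.9% of all genes. They ran from -1.06 for Cdk8 to -0.06 for Ccnl2, with a median of -0.45 beside -0.36 for all genes, 5 of the 8 below that value and 3 above it. Only Cdk8 had groups without overlap. The remaining tested members had overlapping groups, and in some a single array lay far above the others. Cdk5, the kinase best known from neurons, read 4.08 on p190-B-/- array 3 and from -4.01 to -0.68 on the rest, and Cdk7, the CDK-activating kinase, read 2.83 on WT array 1 and from -1.55 to 0.86 on the rest.

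Probes of the same gene did not always agree in sign. Of 9 genes with several tested probes, 6 gave 1 sign and 3 gave opposite signs. Cdk14, a kinase activated by cyclin Y in Wnt signalling, showed the clearest split. Its brighter probe, at chr5:4803733-4803792, read -0.29, 0.10 and -0.43 in WT and 0.60, 1.40 and 4.14 in p190-B-/-, a difference of 2.25 (SE 0.99). Its second probe, at chr5:4805854-4805913 (both mm9), read -3.65, -1.81 and -0.57 in WT and -3.78, -5.04 and -4.07 in p190-B-/-, a difference of -2.29 (SE 0.93). Neither probe had overlapping groups, and the directions were opposite. The second was above background on 3 of 6 arrays, namely WT arrays 2 and 3 and p190-B-/- array 1. On that probe WT array 1, which was not above background, and p190-B-/- array 1 were almost level, at -3.65 and -3.78. The difference of the brighter probe was 1.21 without p190-B-/- array 3 and 1.17 on the single slide. The start of each probe is shown because the direction for Cdk14 depends on which is read.
Cdk14, brighter probe: tcaaatgaagtaagcaaggttctgttctca
Cdk14, second probe: catgtgtcttgtccacatcttaccttttcc

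Cdk4 was the other core kinase with such a split. Its brightest probe read -2.77, 0.36 and -2.53 in WT and 1.27, -0.47 and -1.79 in p190-B-/-, a difference of 1.31 (SE 1.13). A second read -2.97, 3.81 and -1.15 in WT and -2.72, -5.15 and -2.51 in p190-B-/-, a difference of -3.36 (SE 1.66), and the last one differed by -0.20 (SE 0.69). Cdk9, the kinase of the elongation factor P-TEFb, showed the reverse case, with -0.24 (SE 1.12) and -0.18 (SE 0.64) from its 2 tested probes.

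**Figure D4:**
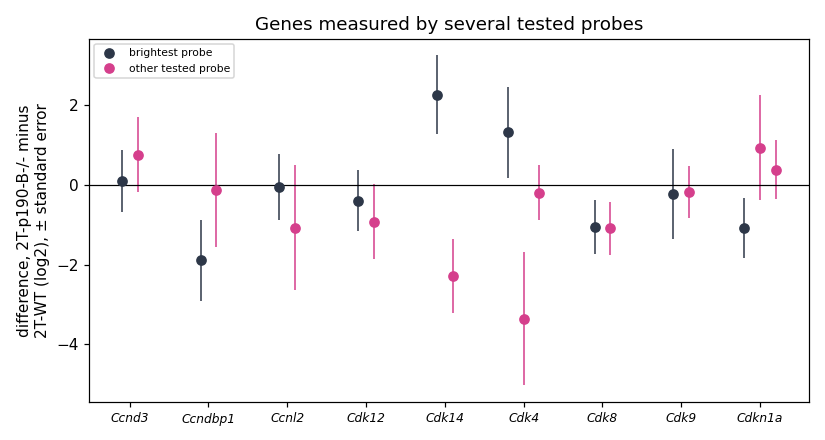
Difference between 2T-p190-B-/- and 2T-WT for each tested probe of the 9 member genes with several (y axis, log2, with the standard error from limma; x axis, genes). Dark points are the brightest probe and pink points the others; the Cdk8 probes coincide near -1.1, whereas those of Cdk14 lie at 2.25 and -2.29.

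Set against each other, inhibitors and proliferation genes gave a contrast that overlapped between the genotypes. The quiescence inhibitors were the 7 CDK inhibitors with Rb1 and Rbl2, of which 7 were tested, and the proliferation genes were the G1-S drivers with the S, G2 and M phase genes, of which 15 of 22 were tested. Rbl1, the remaining pocket protein, with a difference of -2.18, was in neither list. The median difference was -1.05 for the inhibitors, 3 above 0 and 4 below it, and -0.02 for the proliferation genes, 7 above 0 and 8 below it. The first minus the second was -1.03. None of the 7 inhibitors and 1 of the 15 proliferation genes, Ccnd1, passed the methods' threshold in the lower direction, and none passed it in the higher direction. The inhibitor median falls in a gap between 4 genes from -1.59 to -1.05 and 3 genes from 0.35 to 1.24, and it was 0.075 when each gene was the mean of its tested probes. Without WT array 3 the inhibitor median was -0.12 and the contrast 0.010.

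By array, the median inhibitor level less the median proliferation level was -1.04, -1.44 and -0.80 in WT and -2.51, -1.59 and -1.19 in p190-B-/-. The means were -1.10 ± 0.32 and -1.76 ± 0.68 (SD, n = 3 each), and p190-B-/- array 3 lay above WT array 2. The proliferation medians were close, at -0.48, -0.41 and -0.26 in WT and -0.48, -0.08 and -0.86 in p190-B-/-. The inhibitor medians were -1.52, -1.85 and -1.06 in WT and -2.99, -1.67 and -2.05 in p190-B-/-. The lowest signal that was well above background was -2.69, -4.02 and -2.26 on the WT arrays and -4.84, -2.86 and -3.78 on the p190-B-/- arrays. The array with the lowest inhibitor median, p190-B-/- array 1, also had the lowest such limit, and WT array 3 the highest of both, and the part of the limit in the contrast was not tested.

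**Figure D5:**
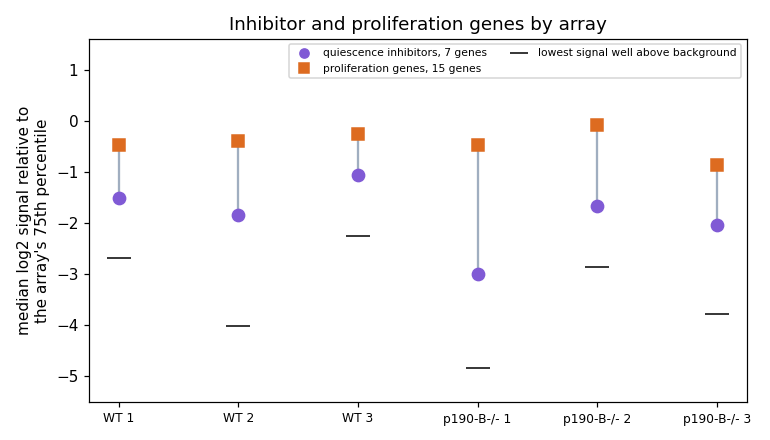
Median level of the 7 tested quiescence inhibitors (circles) and the 15 tested proliferation genes (squares) on each of the 6 arrays (y axis, log2 signal relative to the array's 75th percentile), with the lowest signal well above background as a dash. The proliferation medians lie between -0.86 and -0.08 on all arrays, and the inhibitor medians between -2.99 and -1.06.

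Cell cycle genes that are not members were also spread to both sides of 0. From a list of 49, 48 were on the array and 29 were tested, 12 with a difference above 0 and 17 below it, with a median of -0.67. The methods' threshold held for 1 of them in the higher direction and for none in the lower, against 1.98% and 4.45% of all genes. Groups did not overlap for 1 higher and 5 lower genes of the 29, against 4.13% and 12.6% of all genes. The higher gene was Mcm6, a subunit of the replicative helicase, at -2.05, -1.66 and -3.37 in WT and -0.20, -0.30 and 0.66 in p190-B-/-. The difference for Mcm6 was 2.41 (SE 0.76), with 2 of 3 WT arrays above background. Its partner subunit Mcm7 differed by -2.02 and Mcm4 by 0.08, both with overlapping groups, so that the helicase genes did not share a direction. The largest lower difference without overlap was -3.46 for Kif11, the kinesin that separates spindle poles, at -0.86, 3.48 and 1.37 in WT and -2.42, -2.64 and -1.31 in p190-B-/-. Lin54 and Lin52, subunits of the complex that binds the cell cycle homology region together with p107 or p130, differed by -2.08 and -1.55. Lin54 read 1.34, -1.08 and 1.10 in WT and -2.12, -1.45 and -1.32 in p190-B-/-, and Lin52 read 3.28, 3.54 and 4.69 against 1.72, 2.14 and 2.98. Lin9, another subunit on the list, differed by -1.42 with overlapping groups. None of these had a limma adjusted p under 0.05.

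Of 24 regulators known for keeping stem cells quiescent that are not members, 22 were on the array and 14 were tested, 6 with a difference above 0 and 8 below it and a median of -0.14. Foxo4, a forkhead factor of the family that induces Cdkn1b, was not well above background on any WT array. It passed the filter only through the p190-B-/- arrays, so it is given as a bound and its test is not used. The counts and the median just given still include Foxo4, as a gene above 0. It read 0.80, -1.84 and -2.78 on those arrays, and their mean was at least 3.28-fold above the mean WT limit. The bound leaned on p190-B-/- array 1. The reading on p190-B-/- array 3 lay below the limits of WT arrays 1 and 3, which were -2.69 and -2.26. Of the others, Egr1 alone passed the methods' threshold, in the lower direction, as did 4.45% of all genes. Groups did not overlap for Egr1 in the lower direction (12.6% of all genes) and for Mecom in the higher (4.13%). Mecom, above background on every array, read -0.13, 1.20 and 0.77 in WT and 2.37, 1.34 and 4.36 in p190-B-/-. The Mecom difference was 2.07 (SE 0.93). Foxo4, Egr1 and Mecom were named after their values were seen. Egr1, an immediate-early factor, read -3.04, -1.99 and -2.01 in WT and -4.71, -4.59 and -3.08 in p190-B-/-, a difference of -1.78 (SE 0.77), detected on 2 of 3 arrays of each group.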

How the data were processed

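LSK-SLAM RNA was amplified as cDNA, labelled with Cy3 and hybridised to 6 arrays, 3 per genotype as the labels give it. The authors deposited each array's scanner output from Feature Extraction 10.5.1.1, whose processed signal is an intensity on a linear scale with background removed and no scaling between arrays, and a value table of the same signal divided by 1 number per array. Outlier spots were left out and 0 spots were saturated. The log2 signal was scaled to each array's 75th percentile, repeated spots were averaged, and probes well above background on 3 or more arrays were fitted with limma 3.58.1 in R 4.3.3 with Benjamini-Hochberg adjustment. The fit was tested on simulated data. A gene was its brightest tested probe. Of all probes, 26412 were named through RefSeq by accession and 3854 by name, and 9163 had no name there. Genes of the core lists, and other members whose groups did not overlap or that passed the methods' threshold, were named with all values, and other cell cycle genes by the 3 largest differences without overlap in each direction. Mcm7, Mcm4 and Lin9 were added for comparison after their values were seen, as were Cdk5, Cdk7 and Cdk9. A gene of the B lymphocyte list is not reported here. Members and lists were chosen with earlier results of these data known. The number of arrays limits the precision. Alternatives were quantile normalization, normexp with an offset of 50, other filters, the value table, slide and replicate blocks, a trended variance, each array left out, and the mean of a gene's probes.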

Additional observations from a re-analysis of the deposited data

How the results depend on the processing

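No alternative gave a member probe, or any probe, an adjusted p under 0.05. With the replicate block the counts and medians kept their values (median inhibitor difference -1.05), as they had to. A balanced block leaves the mean difference of a gene unchanged, and the threshold and overlap counts did not use the block. This setting therefore cannot show whether they are stable. Since deviations of same-numbered arrays correlated at 0.009, 0.016 and 0.086, the numbers were not taken to pair the samples. Counts below are of member genes. Past the methods' threshold, 1 was higher with quantile normalization, the authors' processed values or the slide that holds both genotypes. Without overlap, higher genes numbered 1 with normexp, with probes above background on all 6 arrays and with the mean over probes, and 4 on the single slide, and lower genes numbered 14 with normexp and 15 on the single slide, where 2 arrays per group overlap less often by construction. With 1 array left out, the methods' threshold held for 0 to 2 higher and 1 to 4 lower genes (1 lower without WT array 1 or 3, or p190-B-/- array 1 or 2), and 2 to 4 higher and 9 to 14 lower genes did not overlap. The inhibitor median ran from -1.18 to -0.12, the proliferation median from -0.39 to 0.24 and their contrast from -1.24 to 0.010. With normexp the proliferation median was -0.35 and the contrast -0.26, and with the mean over probes the inhibitor median was 0.075 and the contrast 0.16. The cause of these shifts was not tested.

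Of 32 named genes, 17 kept the sign of their difference in every alternative that gave them a value and 15 did not, and 13 had no value with the filter on all 6 arrays. With quantile normalization Ccnd2 was 0.016, E2f1 0.14 and E2f7 0.049. With normexp Ccna1 was -0.36, Ccna2 -0.34, Ccne1 -0.35, Cdk4 -0.039, Cdkn2b -0.61, Cdkn3 -0.39, E2f1 0.29 and E2f7 0.41. With the authors' processed values Ccnd2 was 0.032 and E2f1 0.10. With the slide as a block, or that slide alone, Ccnd2 was 0.52. With the mean over probes Cdk14 was -0.018, Cdk4 -0.75 and Cdkn1a 0.075. With 1 array left out the sign changed for Ccna2 (-1.05 to 1.23), Ccnb1 (-0.39 to 0.82), Ccnd2 (-0.94 to 0.61), Ccnd3 (-0.34 to 0.59), Ccne1 (-0.48 to 0.34), Cdkn1c (-0.065 to 1.96), Cdkn2b (-1.25 to 1.35), Cdkn3 (-0.13 to 0.98), E2f1 (-0.84 to 0.64), E2f7 (-0.78 to 0.034) and Rb1 (-0.10 to 1.89). The median over all genes was -0.14 with quantile normalization and -0.53 with no filter, against -0.36. Signal over background left 27 of 73 genes untested.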
